A study of Citrullus lanatus with 12 samples.

Results

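Of the 23440 watermelon genes in the deposited table, 59 rose in moderate steps at every stage of anther development, from the tetrad through the mononuclear stage and the dikaryophase to maturity. The members were chosen on the stage means of the deposited log2 values: a mature mean of at least 8 (255 normalised reads), and a rise of at least 0.5 and under 1.5 on the log2 scale at each of the 3 steps between neighbouring stages. Each step was thus between 1.41-fold and 2.83-fold. Since the stage means chose the genes, their rises are given as a description and carry no test of their own.

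The 12 libraries came from anthers of greenhouse-grown progeny of the watermelon (Citrullus lanatus) variety Xinteda Zhengkang 9, with 3 libraries (replicates 1 to 3) for each of the 4 stages. The labels give the same variety and growing conditions for every library and separate the groups only by the stage that microscopy assigned to each anther. The labels name 3 sets of samples per stage without saying whether these came from different plants. All errors below thus rest on the spread between these samples, which may be technical. Gene-assigned reads numbered 55347640 to 65554998 per library, and normalised reads below are those reads divided by the authors' factor for the library.

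In anthers, meiosis leaves microspores bound together as tetrads, which are released, divide to give a vegetative and a generative cell, and fill with reserves as they mature, while the tapetum that feeds them breaks down. Genes needed for the germination and growth of the pollen tube are known to be transcribed late in this series, before the pollen is shed. An anther library mixes pollen with the anther wall and other tissue, and a level is relative to the other genes of its library. More cells of a type and more RNA per cell thus cannot be told apart. The gene IDs carry no names or descriptions in the sources used here, so markers of tapetum or pollen could not be checked, and the members are described by ID and level alone.

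The median member stood at 2.59 on the log2 scale above its tetrad mean at maturity, a 6.02-fold rise, and the range over the 59 genes was 3.21-fold to 15.9-fold. The median steps were alike in size, at 0.82 from tetrad to mononuclear, 0.86 from mononuclear to dikaryophase and 0.86 from dikaryophase to mature. Over all 17484 genes that reached 1 CPM (reads scaled to the total of their library) in at least 3 libraries, the median steps were -0.01, 0.00 and 0.01. All 59 members passed that filter, 46 of them with at least 1 CPM in all 12 libraries, and no member was without reads in any library. The lowest value was 12 reads, for Cla006604 in tetrad library 2. Together the members took 0.102% ± 0.00395 of all tetrad reads, 0.159% ± 0.0170 of mononuclear, 0.316% ± 0.0466 of dikaryophase and 0.527% ± 0.0146 of mature reads (SD, n = 3).

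**Figure D1:**
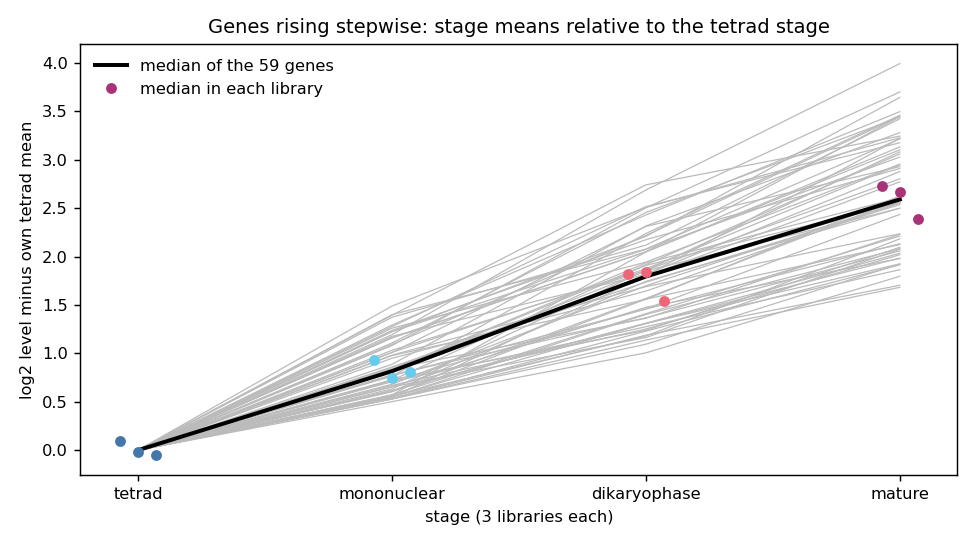
Mean log2 level of each of the 59 genes at the 4 stages, less its own tetrad mean (grey lines), with the median over genes (black line) and the median in each of the 3 libraries of a stage (points). The medians of the mature libraries lie at 2.72, 2.67 and 2.39, all above those of the dikaryophase libraries at 1.82, 1.84 and 1.54.

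In normalised reads, most of the gain fell in the last step. A constant step on the log2 scale multiplies the level, and the median member made 16.3% of its gain in normalised reads between tetrad and mononuclear, 29.3% between mononuclear and dikaryophase and 55.6% between dikaryophase and mature. The last step brought the largest gain in 53 of the 59 members, the middle step in 6 and the first in 0. The limits of the rule on the log2 steps favour this division, so nothing about the members is read from it.

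The mature levels of the members spanned the range of well-expressed genes, with a median of 10.50 on the log2 scale against 10.41 for all tested genes. The rule asks for a mature mean of at least 8 and the filter on tested genes does not. These medians are thus over unlike sets, and nothing is read from them. Of the 59, 14 had mature means between 8 and 9, 9 between 9 and 10, 11 between 10 and 11, 10 between 11 and 12, 11 between 12 and 13, and 4 above 13. The 14 lowest members rose by a median of 2.95, the 20 with mature means from 9 to 11 by 2.53, and the 25 highest by 2.56.

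The most abundant member was Cla014416. It held 16295, 17175 and 18865 normalised reads in the tetrad libraries, 34444, 28606 and 31949.9 in the mononuclear ones, 84770.3, 49184 and 46740.5 at the dikaryophase and 85089, 105337 and 115040.0 at maturity. The stages did not overlap, although dikaryophase library 1 lay only just below the lowest mature library. Its steps of 0.86, 0.88 and 0.80 (SE 0.21 each, n = 3 per stage) were among the most even of the group. It took 0.169% ± 0.0339 of all reads at the mature stage (SD, n = 3). Here and below, SEs of steps come from a limma fit. The fit draws a gene's own spread, pooled over the 4 stages, towards the trend over all tested genes. An SE can thus be smaller or larger than the gene's own spread would give.

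Cla018777 was as abundant as Cla014416 at the tetrad stage and rose less. Its tetrad libraries held 20453, 19797 and 17216 normalised reads, its mononuclear libraries 31058, 28768 and 23406, its dikaryophase libraries 33154, 55982 and 39966, and its mature libraries 65579, 62696 and 56026. Every stage lay above the one before it, but the highest mononuclear library and the lowest dikaryophase library were close. The total rise of 1.68 was the smallest of the 59, divided into steps of 0.53, 0.61 and 0.54 (SE 0.18 each). Without these 2 genes, the other 57 members went from 0.0410% ± 0.00308 of reads at the tetrad stage through 0.0698% ± 0.00642 and 0.144% ± 0.0245 to 0.256% ± 0.0335 at maturity (SD, n = 3).

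Cla003043 rose steeply at the first 2 steps and less at the last. Its values were 2894, 2239.6 and 2285 normalised reads in tetrad libraries, 7406, 5918 and 4799.7 in mononuclear, 16206, 16310.1 and 10474 in dikaryophase and 25819.5, 24639 and 17176 in mature ones. No stage overlapped the next, and the steps were 1.28, 1.24 and 0.66 (SE 0.22 each). Cla006992 had its smallest step in the middle (1.26, 0.68 and 1.01, SE 0.15 each). It held 1167, 1389 and 1209.6 normalised reads in tetrad anthers, 2799, 2849 and 3383 in mononuclear anthers, 5640.0, 4633 and 4267 in dikaryophase anthers and 7880.3, 10716 and 10824 in mature anthers. Its libraries also kept the stages apart, with a pooled within-stage SD of 0.19 on the log2 scale, among the 5 smallest of the members.

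In Cla016949 the later stages met. The gene held 1529, 1327 and 1065 normalised reads in tetrad libraries, 1935, 2548 and 1806 in mononuclear, 3346, 5524 and 3997 in dikaryophase and 9696, 9787 and 4680.0 in mature ones. Mature library 3 lay below dikaryophase library 2, and the other stages did not overlap. Cla020754 was tighter, with 1409, 1979 and 1169 normalised reads in tetrad anthers, 2570.2, 2185 and 2928 in mononuclear anthers, 3289, 3923 and 4340.1 in dikaryophase anthers and 7661, 5466 and 5626 in mature anthers. All 4 stages stood apart, with steps of 0.78, 0.59 and 0.69 (SE 0.20 each).

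Cla013360 had the second largest rise of the group, 3.70 on the log2 scale or 13.0-fold, and a wide spread at maturity. Tetrad libraries held 733, 589 and 356 normalised reads, mononuclear libraries 829, 1316 and 1335, dikaryophase libraries 3011, 4368 and 2137, and mature libraries 13295, 9605 and 2652. Mature library 3 lay below 2 of the dikaryophase libraries, and the last step was 1.20 (SE 0.51). Cla013264 barely met the rule at its first 2 steps, both 0.50, before a last step of 0.79 (SE 0.33 each). It held 2274, 1858 and 1891 normalised reads in tetrad libraries, 3784, 3180.4 and 1884 in mononuclear, 4749, 5718 and 2382 in dikaryophase and 8395, 8039 and 4962 in mature ones. Library 3 was the lowest at each of the later 3 stages, and every pair of neighbouring stages overlapped.

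**Figure D2:**
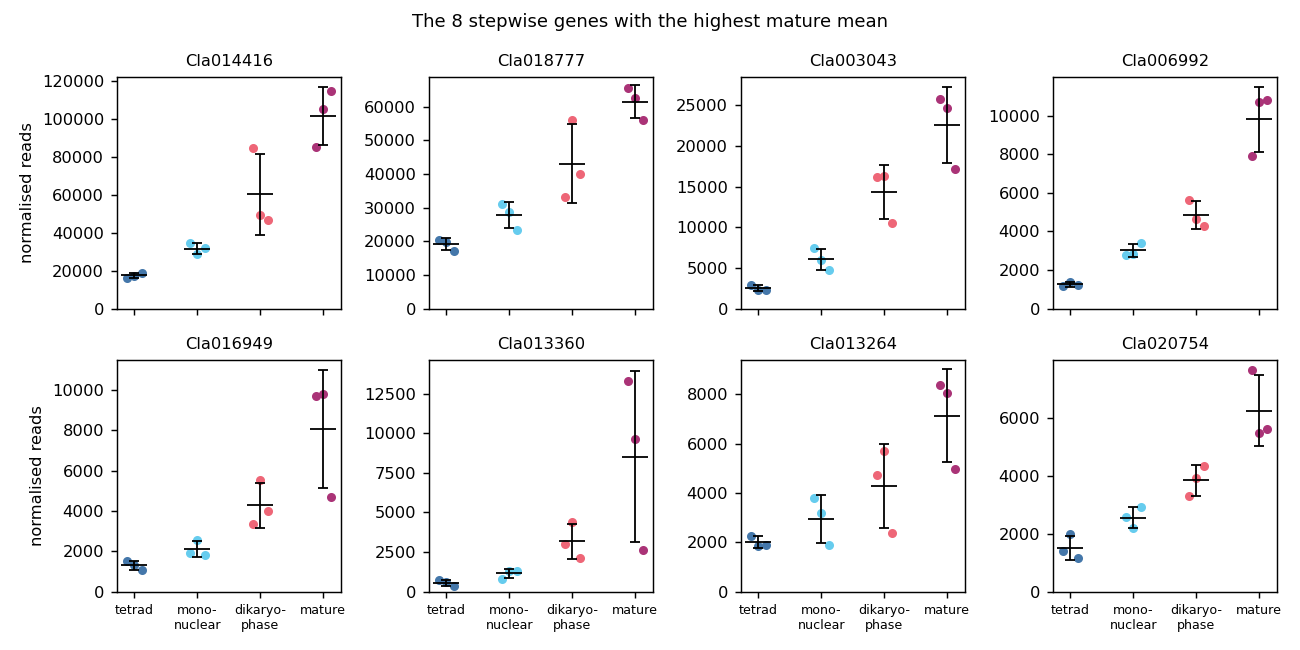
Normalised reads of the 8 members with the highest mature mean in each of the 12 libraries (points, 3 per stage in the order of their numbers), with the stage mean and SD (n = 3) in black and each vertical axis starting at 0. Cla014416 climbs from about 17445 to 101822 on average and keeps its stages apart, while in Cla013360 and Cla016949 mature library 3 falls among the dikaryophase libraries.

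The largest rise belonged to Cla022912, at 3.99 on the log2 scale or 15.9-fold. It held 81.2, 48.7 and 84.8 normalised reads in tetrad libraries, 118, 252 and 138 in mononuclear, 669, 482 and 288 in dikaryophase and 1066, 1508 and 877 in mature ones. The stages did not overlap, and the steps of 1.19, 1.49 and 1.31 (SE 0.38 each) were all large, the middle one the closest of any member to the upper limit of 1.5. Cla017393 rose by 3.64, with 51.0, 30.5 and 42.4 normalised reads in tetrad anthers, 93.4, 89.0 and 105 in mononuclear anthers, 247, 231 and 120.5 in dikaryophase anthers and 378, 851 and 428 in mature anthers. Its stages stood apart, and its last step of 1.44 was the largest last step of the group (SE 0.36).

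Cla020161 and Cla010340 followed, with rises of 3.50 and 3.46. Cla020161 held 32.1, 20.3 and 55.2 normalised reads in tetrad libraries, 80.0, 76.6 and 91.5 in mononuclear, 187, 205 and 159 in dikaryophase and 477, 304 and 389.6 in mature ones. Its steps shrank slowly, from 1.29 through 1.14 to 1.07 (SE 0.34 each). Cla010340 held 98.1, 89.3 and 98.6 normalised reads in tetrad anthers, 131, 148 and 221 in mononuclear anthers, 369, 559 and 450.4 in dikaryophase anthers and 1269.9, 998 and 934 in mature anthers. Here the first step was the small one (0.76) and the later 2 were 1.47 and 1.22 (SE 0.23 each), and in both genes the stages did not overlap.

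Besides Cla018777 and Cla013264, the smallest rise was that of Cla015142, at 1.70 in steps of 0.53, 0.65 and 0.52 (SE 0.37 each). Its tetrad libraries held 193, 159 and 121 normalised reads, its mononuclear libraries 318, 229 and 156, its dikaryophase libraries 615, 299 and 242, and its mature libraries 417, 473 and 662. Dikaryophase library 1 lay above 2 of the mature libraries, and every neighbouring pair of stages overlapped.

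The tightest members had within-stage SDs of 0.15 to 0.21 on the log2 scale and moved up at every stage with no overlap. Cla001789 held 507, 436 and 486 normalised reads in tetrad libraries, 797, 699 and 776 in mononuclear, 1158, 1030.2 and 1217 in dikaryophase and 1853, 1674 and 2313 in mature ones. Cla002170 held 487, 470.1 and 480.1 in tetrad anthers, 688, 731 and 783 in mononuclear anthers, 943, 1285 and 1391 in dikaryophase anthers and 2003, 2006 and 1886 in mature anthers. The total rises were 4.05-fold and 4.09-fold, and in Cla002170 the steps were even at 0.61, 0.70 and 0.72 (SE 0.14 each).

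Cla002657 and Cla018926 were as tight. Cla002657 held 626, 522 and 563 normalised reads in tetrad libraries, 1135, 1106 and 1119 in mononuclear, 1788, 1940.1 and 1353 in dikaryophase and 3327, 3645 and 3580.4 in mature ones. Its middle step was the small one (0.98, 0.58 and 1.07, SE 0.13 each). Cla018926 held 580.4, 560.4 and 543 normalised reads in tetrad anthers, 859.8, 943 and 717 in mononuclear anthers, 1154, 1831 and 1574 in dikaryophase anthers and 2827, 2565 and 2433 in mature anthers. In this gene the first step was the small one (0.57, 0.84 and 0.80, SE 0.16 each).

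The steps of Cla014776 differed from each other by only 0.07, the smallest range of the group, and those of Cla003174 by 0.09. Cla014776 held 1607, 1656 and 1274 normalised reads in tetrad libraries, 2969, 3082 and 1340.1 in mononuclear, 4137, 3772 and 3305 in dikaryophase and 6166, 6059.8 and 5627 in mature ones. Mononuclear library 3 sat among the tetrad libraries, and the stage means gave steps of 0.62, 0.69 and 0.68 (SE 0.26 each). Cla003174 held 878, 569 and 848 normalised reads in tetrad anthers, 1632, 1236 and 1039 in mononuclear anthers, 2369, 2284 and 1623 in dikaryophase anthers and 3682, 3458 and 2807 in mature anthers. Only dikaryophase library 3 crossed a neighbouring stage, lying just below mononuclear library 1.

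The 4 members with the widest spread had within-stage SDs of 0.75 to 0.97. Cla006604 held 72.7, 12.2 and 59.1 normalised reads in tetrad libraries, 41.0, 71.0 and 214 in mononuclear, 94.8, 197 and 217 in dikaryophase and 509, 382 and 384 in mature ones. Its first 3 stages overlapped and the mature libraries lay above all others. Cla015116 held 36.8, 29.4 and 21.7 normalised reads in tetrad anthers, 58.5, 22.5 and 56.8 in mononuclear anthers, 251, 85.9 and 49.7 in dikaryophase anthers and 369, 442 and 128 in mature anthers, and each of its stages overlapped the next.

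Cla015901 held 536, 467 and 727 normalised reads in tetrad libraries, 1337, 499 and 1489 in mononuclear, 2421, 2216 and 1602 in dikaryophase and 6345, 4873 and 1064 in mature ones. Mononuclear library 2 was at the tetrad level and mature library 3 below every dikaryophase library. Cla004454 held 632, 421 and 729 normalised reads in tetrad anthers, 2474, 1583 and 1098 in mononuclear anthers, 5172, 4961 and 1395 in dikaryophase anthers and 6665, 8008 and 2995 in mature anthers. Its libraries numbered 3 at the later 2 stages lay apart from the other two of each stage, and its first step of 1.49 was close to the upper limit.

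Over all members, the libraries of the tetrad and mononuclear stages did not overlap in 48 of 59, against 18.9% of all tested genes that rose without overlap. For the mononuclear stage and the dikaryophase the count was 45 (12.3% of all tested genes), for the dikaryophase and maturity 41 (15.5%), and for the tetrad and mature ends 59 (28.1%). All 12 libraries stood in stage order in 31 members (1.22% of all tested genes). In 17 members 1 neighbouring pair of stages overlapped, in 7 members 2 pairs did, and in 4 (Cla013264, Cla001817, Cla015142 and Cla015116, named after their values were seen) all 3 pairs did. The rule on stage means favours such order, so nothing about the members is read from these counts.

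Limma's moderated test with Benjamini-Hochberg adjustment over all 17484 genes (adjusted p under 0.05) called 29 of the 59 members higher at the mononuclear stage than at the tetrad stage, beside 9.05% of all genes. It called 24 members higher at the dikaryophase than at the mononuclear stage (5.06% of all genes), 22 higher at maturity than at the dikaryophase (4.96%) and 59 higher at maturity than at the tetrad stage (21.3%). The F-test over the 4 stages passed all 59 (44.6% of all genes). The rule used the same contrasts, so these counts only describe how the chosen steps compared with the spread. A step that was not called had a mean rise of at least 0.5 all the same, and the median SE of a step was 0.27 on the log2 scale (range 0.13 to 0.69).

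Counts of called steps moved when single libraries were left out. The 29 members of the first step became 15, 16 and 18 without tetrad replicates 1, 2 and 3, and 18 without mononuclear replicate 1. For the middle step the 24 became 14 without dikaryophase replicate 2, and for the last the 22 became 10 without dikaryophase replicate 3 and 11 without mature replicate 2. Each omission also leaves its stage with fewer libraries. Loss of replication thus cannot be told apart here from the part of a particular library. All 3 steps were called in 13 members (Cla014416, Cla006992, Cla010365, Cla002657, Cla018926, Cla020209, Cla020303, Cla003708, Cla002170, Cla001789, Cla022912, Cla010340 and Cla008619), 2 steps in 11, 1 step in 14 and 0 steps in 21. Over all tested genes the shares called higher at 3, 2, 1 and 0 steps were 0.332%, 2.43%, 13.2% and 84.0%. Among the 576 other genes with a mature mean of at least 8 and a total rise in the same span as the members, the counts were 14, 179, 280 and 103. The median within-stage SD was 0.31 in the 25 members with a mature mean of 11 or more, 0.35 in the 20 with means from 9 to 11 and 0.39 in the 14 below 9.

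The rule bounds the difference between a member's steps, so their sizes are given as a description. The largest step was the first in 16 members, the middle one in 25 and the last in 18, and the gap between a member's largest and smallest step had a median of 0.36 (range 0.07 to 0.91). That gap was smaller than the SE of a step in 21 members and larger than 2 such SEs in 11. A difference between steps has a larger error than a step, so these counts test nothing. Steps grew steadily in 9 members and shrank steadily in 7. Among those 11 members, Cla010340 had a small first step (0.76 before 1.47). Cla002657, Cla006992 and Cla011574 had a small middle step (0.58, 0.68 and 0.74). Cla003043 and Cla020132 had a small last step (0.66 and 0.50, with SEs of 0.22 and 0.34). Whether the steps of a gene differed was not tested.

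At the limits of the rule, members and excluded genes lay close together. The lowest mature means inside were those of Cla015116 (8.11) and Cla018248 (8.33), and the nearest outside were Cla008338 (7.99) and Cla007092 (7.96). The smallest steps inside were 0.50 in both Cla013264 and Cla020132, against 0.49 in both Cla017416 and Cla007950, which fell outside. At the upper limit, Cla022912 (1.49) and Cla004454 (1.49) lay inside, and Cla009651 (1.52) and Cla011548 (1.52) outside. Between the nearest gene on each side, the gap across each limit was smaller than 0.27, the median SE of a step. That SE is for a difference between stages, while the mature limit concerns a single stage mean.

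Under the limits used here, stepwise genes were a minority of the genes with a total rise in the same span. With a mature mean of at least 8 and a total rise of at least 1.5 and under 4.5, the span that the rule allows, there were 635 genes, of which the members were 9.29%. This share depends on the step limits. Steps of at least 0.4 and under 1.6 gave 108 genes in place of 59, and steps of at least 0.6 and under 1.4 gave 31. The members' own rises ran from 1.68 to 3.99, and the totals were not matched. Of the 576 others, 527 had a step under 0.5 and 326 a step of 1.5 or more, and 277 had both. A step was downward in 268 of them, while 308 rose at all 3 steps, with at least 1 step outside the limits. The largest step was the first in 197 of the others, the middle one in 187 and the last in 192. All 12 libraries stood in stage order in 46 of the 576. Within-stage SDs had a median of 0.36 in the members, 0.42 in the 576 others and 0.20 in the 16380 tested genes whose mean over all libraries lay in the members' range. No test compares these values, because the rule selects on the steps.

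**Figure D3:**
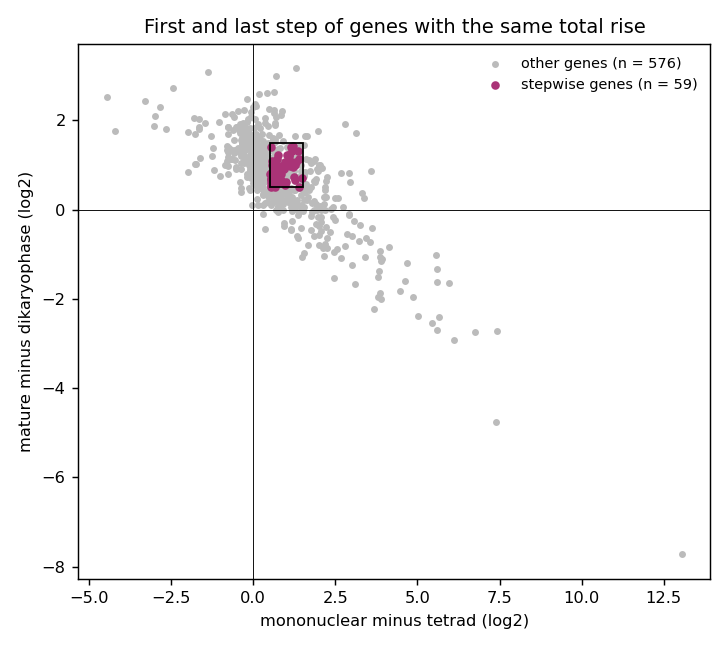
First step (mononuclear minus tetrad) against last step (mature minus dikaryophase) on the log2 scale for the 635 genes with a mature mean of at least 8 and a total rise of 1.5 to 4.5; the 59 stepwise genes are in colour and the square marks the limits of 0.5 and 1.5. The 576 other genes scatter around the square, 268 of them with a downward step, and grey points inside the square had a middle step outside the limits.

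The same rule mirrored, with a tetrad mean of at least 8 and falls of 0.5 to 1.5 at each step, found 48 genes. Their median falls were 0.93, 0.78 and 0.88 at the 3 steps, with a median total of 2.64, beside a median rise of 2.59 in the rising genes; the limits of the rule bound both totals. The middle step was the largest in 7 of the 48 falling genes and in 25 of the 59 rising ones, a difference that was not tested. The falling genes took 0.579% ± 0.0299 of reads at the tetrad stage and 0.0867% ± 0.00986 at maturity (SD, n = 3).

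Steps measured in libraries that had not chosen the genes were mostly upward. The rule was applied anew to 8 libraries, leaving out those numbered 1, 2 or 3 at every stage, and the steps of the chosen genes were read in the 4 libraries left out. Without the libraries numbered 1, the rule chose 50 genes, and in the libraries left out 40 of them (80.0%) rose at all 3 steps, with median steps of 0.86, 0.95 and 0.87. Leaving out the libraries numbered 2, 43 of 48 genes (89.6%) did so, with median steps of 0.82, 1.04 and 0.76. Leaving out those numbered 3, 48 of 70 (68.6%) did so, with median steps of 0.73, 0.60 and 0.75. Only 30 of the 50, 33 of the 48 and 37 of the 70 chosen genes were among the 59 members. These shares are therefore not shares of the members.

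Genes with a total rise in the same span that the rule did not choose were also read in the left-out libraries. All 3 steps were upward in 47.4% of 568, 52.9% of 590 and 29.3% of 598. No test was made of the difference. Each of these genes had a step outside the limits in the 8 choosing libraries, which by itself favours a lower share, so nothing is read from it. Over all tested genes with a mature level of at least 8 in the left-out library, the shares were 12.9%, 14.5% and 9.09%. Single libraries are noisier than means, and each of the 3 steps reached 0.5 in the left-out libraries in 14 of 50, 27 of 48 and 9 of 70 chosen genes. The whole rule was met there by 8, 15 and 8 of them. The 3 choices overlap in their libraries and are not independent of each other.

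**Figure D4:**
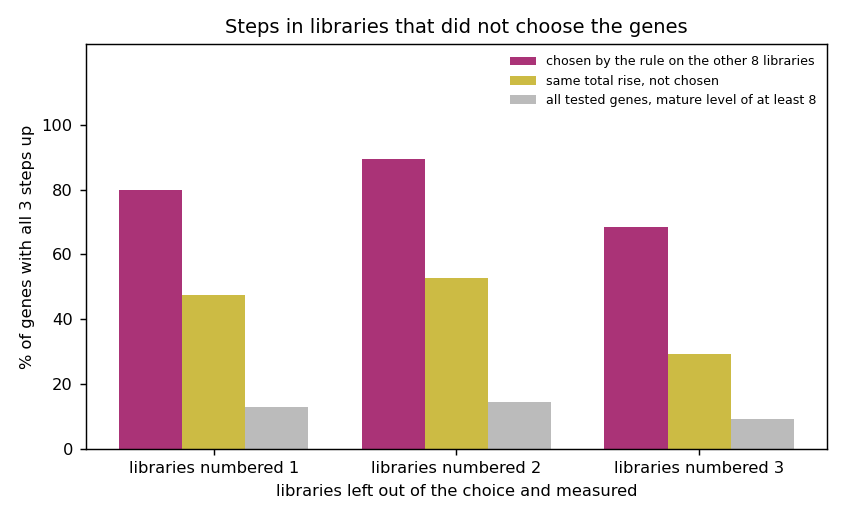
Percentage of genes that rose at all 3 steps in the 4 libraries left out of the choice. Genes chosen by the rule on the other 8 libraries are shown beside other sets. These are genes not chosen with a total rise in the same span, and all tested genes with a mature level of at least 8. The chosen genes, not all of them members, lie at 80.0%, 89.6% and 68.6%, above both other sets for each set of libraries left out. The way the sets were chosen favours this order.

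Deviations of single libraries from their stage mean were shared by many members at the later stages. The rule sets no limit on these deviations, but every library enters the stage means that chose the members. Mature replicate 3 stood apart from the other mature libraries over all genes: the median squared deviation of a gene, in units of counting variance, was 27.2 and 22.6 between it and the others and 6.97 between replicates 1 and 2. It was the lowest mature library in 35 members (59.3%), in 66.3% of the 576 other rising genes and in 41.5% of all tested genes. Its median deviation was -0.18 on the log2 scale in the members and 0.00 over all tested genes. Dikaryophase replicate 3 was the lowest of its stage in 33 members (55.9%), in 46.2% of the other rising genes and in 30.0% of all tested genes, with a median deviation of -0.19 in the members. By squared deviations over all genes, dikaryophase replicate 1 differed from replicates 2 and 3 (17 and 14.1) more than these did from each other (11.3). Without dikaryophase replicate 1 the rule found 45 genes, 38 of them members, and without dikaryophase replicate 3 it found 55, 40 of them members.

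Mature replicate 3 and dikaryophase replicate 3 were both the lowest of their stages in 23 members (39.0%) and in 33.5% of the other rising genes. The shortfall of mature replicate 3 below the mean of replicates 1 and 2 was at least 1 on the log2 scale in 8 members and largest in Cla015901 (-2.39), Cla013360 (-2.09), Cla022226 (-1.74) and Cla015116 (-1.65). In Cla015901, Cla013360, Cla022226 and Cla004454, named after their values were seen, this library lay below the mean of the dikaryophase. Other members went the opposite way. Mature replicate 3 was the highest of its stage in 14 members (23.7%), 17.4% of the other rising genes and 40.3% of all tested genes. It lay above the mean of replicates 1 and 2 by 1.01 in Cla017999, 0.82 in Cla001817 and 0.81 in Cla010353. Mononuclear replicate 2 was the lowest of its stage in 25 members (42.4%) and the highest in 11 (18.6%), against 28.4% and 30.9% of all tested genes and 33.7% and 32.5% of the other rising genes. By squared deviations over all genes, mononuclear replicate 3 stood apart from replicates 1 and 2 (19.2 and 17.1) more than these did from each other (8.86), and without it the rule found 56 genes, 42 of them members. The part of these libraries in the members' steps was measured by leaving them out: without mature replicate 3 the rule found 71 genes, 52 of them members, and without mononuclear replicate 2, dikaryophase replicate 3 and mature replicate 3 together it found 58, of which 38 were members.

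**Figure D5:**
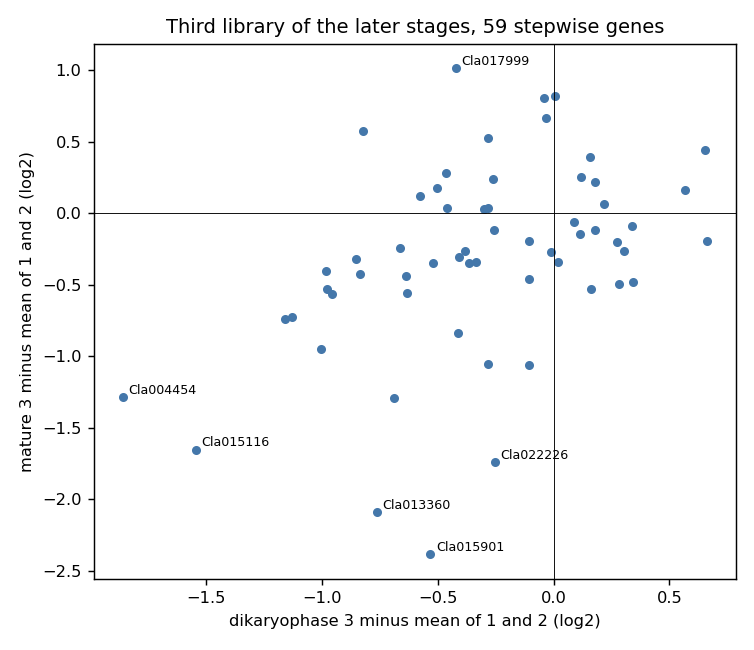
Level of replicate 3 less the mean of replicates 1 and 2 on the log2 scale, at the dikaryophase (horizontal) and at maturity (vertical), for each of the 59 stepwise genes. More points lie left of 0 than right of it, and more below 0 than above; Cla004454 and Cla015116 are far below in both stages, and Cla017999 lies 1.01 above 0 at maturity.

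In 13 members the rule still held when each of the 12 libraries was left out in turn: Cla001789, Cla002170, Cla003174, Cla003708, Cla006992, Cla008498, Cla013408, Cla013837, Cla014416, Cla016949, Cla017726, Cla017999 and Cla020209. In 10 of these it also held under the 5 other scalings and offsets tried. With mononuclear replicate 2, dikaryophase replicate 3 and mature replicate 3 left out together it held in 12 of the 13, all but Cla001789. At the other end, Cla013264 and Cla015116 met the rule in 4 of the 12 settings, and Cla015142 and Cla018777 in 5.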

How the data were processed

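The deposited table gives, per the file headers, 1 column per library, and its columns matched the sample titles, with 0 columns left over. The authors' deposited values are on a log2 scale. The aligner was not given in the sources used here, nor were the counter, genome build, annotation and strand setting, so reads shared between similar or overlapping genes may be misassigned. Taken off the log2 scale and less the offset of 1, 100% of values in each library were whole multiples of its smallest value (tolerance 0.01 reads), which gave back whole reads and CPM.

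A limma model (limma 3.58.1, R 4.3.3) used the deposited log2 values of the 17484 genes that reached 1 CPM in 3 or more libraries, with 1 mean per stage, 8 residual degrees of freedom and a variance trend, and p-values were adjusted by Benjamini-Hochberg over all genes of a comparison. No libraries of a stage agreed within counting noise, with median squared deviations of 5.55 to 27.2.

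The members, the rule and the lists were chosen with earlier results of these data known. Genes named in full were the 8 highest members, the 5 largest and 3 smallest rises, the 5 most even, 5 tightest and 4 widest, and those at the limits. Lists that need gene descriptions were not used here. Alternatives covered scaling, filters, pseudocount, thresholds, a voom fit to whole reads, a replicate block and each library left out.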

Additional observations from a re-analysis of the deposited data

How the results depend on the processing

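The rise from tetrad to maturity was called in all 59 members under every alternative run except the filter of 5 CPM, under which 54 members were tested and 54 called. Counts of called members moved by over 1.5 times in these cases. A log2 fold change of at least 1 besides the adjusted p left 16, 11 and 12 members called at the first, middle and last step, in place of 29, 24 and 22, and an adjusted p under 0.01 left 11, 10 and 10. Limma-voom on whole reads called 16 at the first step, and without a filter on low values 15 were called at the middle step; the cause was not tested. Leaving out each library in turn gave 15 to 33, 14 to 28 and 10 to 26. With mononuclear 2, dikaryophase 3 and mature 3 left out together, added after seeing the data, the counts were 29, 20 and 15. The number of genes meeting the rule was 108 with steps of at least 0.4 and under 1.6, and 31 with steps of at least 0.6 and under 1.4, and it ran from 45 to 71 over single libraries left out. With library size as the only scaling, which moves the median gene by -0.14 at the first step and 0.15 at the middle one, 47 genes met the rule, 36 of them members.

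The labels do not say whether equal replicate numbers mark a shared batch. Deviations of same-numbered libraries correlated by more than 0.1 in all 3 mononuclear and dikaryophase pairs (0.113, 0.150 and 0.175), so these may be paired. In each other pair of stages at least 1 of the 3 correlations was 0.1 or less, although mature replicate 3 reached 0.164 with the mononuclear and 0.364 with the dikaryophase library of its number. With the replicate number as a block, 28, 28 and 26 members were called at the 3 steps, in place of 29, 24 and 22, and 59 between the ends and over all stages.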

Other observations

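Of the 59 members, 2 pairs carried consecutive IDs, found after the values were seen, and whether the IDs follow the genome was not analysed here. The share of such pairs among other genes was not worked out. The rule limits every step of a member to at least 0.5 and under 1.5, so some likeness within a pair is built in. Cla006992 and Cla006993 lie 6747 rows apart in the table and differ in level (tetrad means of 10.29 and 6.12 on the log2 scale), but had steps of like sizes: 1.26, 0.68 and 1.01 in the first, and 1.4, 0.68 and 1.14 in the second (SE 0.15 and 0.27 each). Cla020160 and Cla020161 are neighbouring rows, with tetrad means of 6.86 and 5.09, and steps of 0.89, 1.43 and 0.96 against 1.29, 1.14 and 1.07 (SE 0.33 and 0.34 each). Whether reads of the genes of a pair could be counted for each other was not tested, since no sequence was used.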
